A study of Homo sapiens with 3 samples.

Results

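Mature miRNAs were compared between SK-MEL-2 cells exposed to a plasma jet for 5 min and cells that received no treatment. SK-MEL-2 is an established human melanoma line, and the jet is nonthermal plasma, a partly ionised gas close to room temperature that delivers reactive oxygen and nitrogen species. Both cultures were grown in RPMI-1640 with serum and antibiotics and carried no other agent, and RNA was taken on Day 2 after exposure. Each side was 1 small-RNA library, and a library of cells exposed for 3 min entered only the count filter, the scaling and the values set beside the comparison. Of the 2588 human miRNAs listed, the 231 whose counts averaged 20 or more across the 3 libraries were compared, and they held 99.8% of the control counts and 99.7% of the 5 min counts. The last miRNA inside this limit was miR-6514-3p, with 25, 22 and 13 counts (control, 3 min and 5 min in turn), and the first outside was miR-30c-1-3p, with 24, 24 and 11.

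A miRNA is cut from a hairpin that can give a mature strand from either arm, named 5p and 3p. One strand, the guide, is usually kept in Argonaute and the other, the passenger, is mostly lost. Bases 2 to 8 of the guide, the seed, pair with target mRNAs, so miRNAs with the same seed form a family with overlapping targets. Hairpins that lie close together are often cut from one primary transcript and form a genomic cluster. Results are therefore given by single miRNA, by seed family, by cluster and by arm.

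The sequences below carry the main differences. They were taken from RefSeq (GRCh38.p14), which matched 207 of the 231 miRNAs by name, and capitals mark the seed. The first set holds the families and clusters whose summed counts lay farthest above control, with miR-192-5p and miR-215-5p sharing one seed and the miR-29 members another.
miR-215-5p: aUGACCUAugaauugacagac
miR-192-5p: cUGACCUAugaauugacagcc
miR-194-5p: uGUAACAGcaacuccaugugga
miR-29a-3p: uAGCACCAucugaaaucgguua
miR-29b-3p: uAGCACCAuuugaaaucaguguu
miR-29c-3p: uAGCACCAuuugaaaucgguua
The second set holds the families farthest below control, a group of let-7 passenger strands and the miR-1260 pair.
let-7a-3p: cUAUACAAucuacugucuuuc
let-7b-3p: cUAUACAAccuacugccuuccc
let-7f-1-3p: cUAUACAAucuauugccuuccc
miR-1260a: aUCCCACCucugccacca
miR-1260b: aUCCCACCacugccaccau
The third set holds miRNAs far above control, with miR-5701, a smaller difference, shown for its run of bases shared with a small nucleolar RNA. Each has a seed of its own.
miR-3176: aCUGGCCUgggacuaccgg
miR-4497: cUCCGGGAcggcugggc
miR-7704: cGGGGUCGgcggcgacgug
miR-1246: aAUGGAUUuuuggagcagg
miR-539-3p: aUCAUACAaggacaauuucuuu
miR-3916: aAGAGGAAgaaauggcugguucucag
miR-4791: uGGAUAUGaugacugaaa
miR-5701: uUAUUGUCacguucugauu
miR-589-5p: uGAGAACCacgucugcucugag
The fourth set holds minor strands that lay below their own partner strand.
miR-125b-1-3p: aCGGGUUAggcucuugggagcu
miR-23b-5p: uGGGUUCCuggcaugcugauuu
miR-27b-5p: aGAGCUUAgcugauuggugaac
miR-27a-5p: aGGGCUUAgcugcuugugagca
miR-29b-1-5p: gCUGGUUUcauauggugguuuaga
miR-16-1-3p: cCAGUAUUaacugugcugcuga

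Library totals ran from 615645 counts at 5 min to 1045482 in the control, with 966943 at 3 min, so 1 count was worth 1.62 CPM at 5 min and 0.956 CPM in the control. Levels are given in TMM-scaled CPM, and ratios are 5 min over control on that scale, with an exact 95% interval from the split of the counts. The intervals cover counting error only, and PCR copies of a molecule are counted as separate reads. With 1 library a side there was no replicate and no test, so each ratio compares libraries, not conditions. Because counts are shares of a library, a lower share from fewer molecules per cell and one from fewer cells that express the miRNA cannot be told apart. The melanocytic markers miR-204-5p and miR-211-5p were present (2608 and 128 control counts, 1257 and 65 at 5 min), as was miR-146a-5p (1319 and 1139), whereas 5 of the 8 listed, all of the miR-506 to miR-514 group, had 0 counts in each library, which allows up to 2.87 CPM in the control and 4.87 CPM at 5 min.

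After 5 min, 22 of the 231 miRNAs (9.52%) stood 2-fold or more above control and 8 (3.46%) 2-fold or more below it. At 1.5-fold, 40 (17.3%) were higher and 27 (11.7%) lower. TMM over all listed miRNAs shifted every log2 ratio by -0.17 and gave 18 higher and 16 lower at 2-fold, or 27 higher and 40 lower at 1.5-fold, so the balance of directions rests on the scaling. The median log2 ratio was 0.05. Intervals lay wholly above 1 for 67 miRNAs and wholly below 1 for 60, and they included 1 for 104. Differences sat mostly among scarce miRNAs. Of the 100 miRNAs that averaged under 100 counts, 20 were 2-fold away from control, against 12.3% of the 73 in the next decade of counts and 1.72% of the 58 most abundant.

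**Figure D1:**
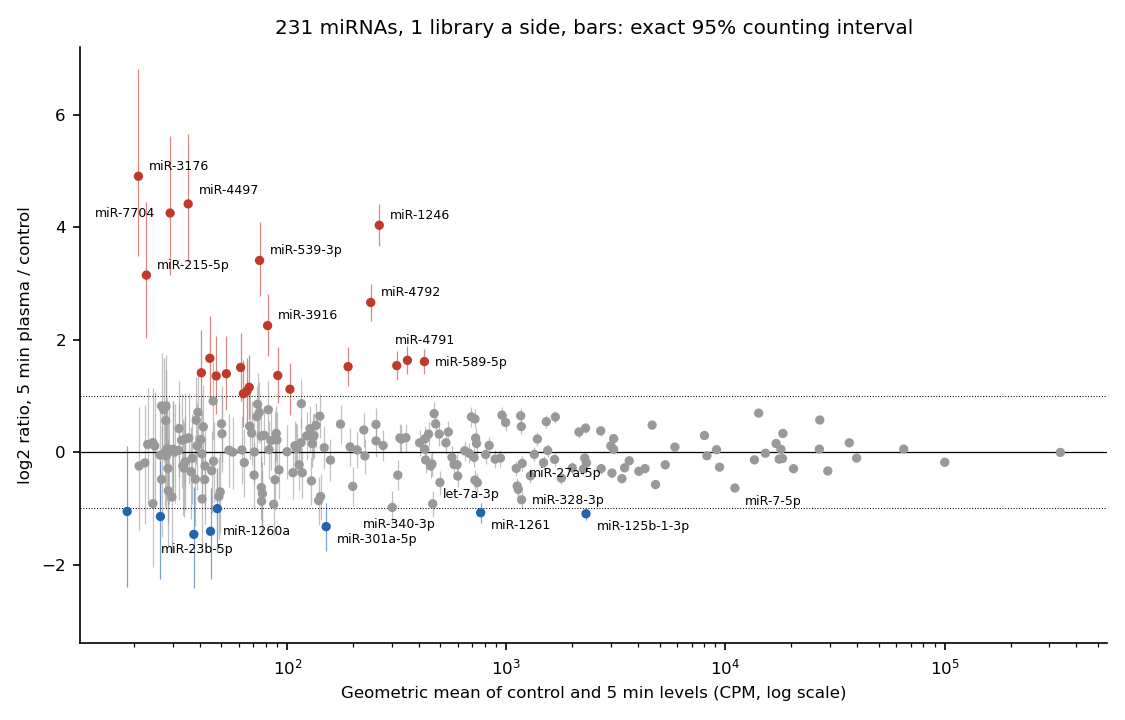
Log2 ratio of 5 min plasma over control (y axis) against the geometric mean of the 2 levels in CPM (log x axis) for the 231 miRNAs, with bars for the exact 95% counting interval. Red points are at least 2-fold higher, blue points at least 2-fold lower and dotted lines mark 2-fold. Of the 58 most abundant miRNAs, miR-125b-1-3p alone lies past 2-fold.

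The highest ratios belonged to entries with 1 listed strand. miR-3176 (chr16:543277-543366, in an intron of CAPN15) had 3.82 CPM in the control, 38.6 at 3 min and 114 at 5 min. miR-4497 (mature strand at chr12:109833350-109833366) had 7.65, 26.1 and 163 CPM in the same order. For miR-7704 (chr2:176188843-176188901, in an exon of the homeobox gene HOXD1) the levels were 6.69, 10.4 and 127 CPM. Each of the 3 stood highest at 5 min and lowest in the control, where they rested on 4, 8 and 7 counts. Their ratios were 29.9 (11.2 to 113), 21.3 (10.4 to 50.6) and 19.0 (8.81 to 48.8). miR-4497 and miR-7704 averaged fewer than 20 counts without the 5 min library, so the count limit admitted them only through the library in which they were high. The same held for 1 other of the 22 higher miRNAs, miR-215-5p.

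More reads stood behind miR-1246 (chr2:176600980-176601052), which had 65.0 CPM in the control, 115 at 3 min and 1063 at 5 min. Its 660 counts at 5 min against 68 gave a ratio of 16.4 (12.7 to 21.3). miR-4792 had 95.6, 162 and 604 CPM, and miR-4791 (chr3:19314848-19314931) had 201, 400 and 622 CPM. Both were above control at each exposure, with 5 min ratios of 6.32 (5.06 to 7.96) and 3.10 (2.61 to 3.68). miR-3916 (chr1:247201967-247202060, in an exon of the pseudogene AL390728.4) had 37.3, 92.9 and 177 CPM, a ratio of 4.75 (3.27 to 7.04).

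Some of the high entries have a second listed strand. miR-539-3p (chr14:101047321-101047398, in an intron of MIR381HG) belongs to the imprinted miRNA cluster of the DLK1-DIO3 region. It had 22.9 CPM in the control, 197 at 3 min and 243 at 5 min, while miR-539-5p had 0 counts in all 3 libraries. Another measured miRNA of that region, miR-337-3p (chr14:100874493-100874585), lay near control at 5 min, so the difference was not shared across the region. miR-589-5p (chr7:5495819-5495917, in an intron of FBXL18) had 242 CPM in the control, 269 at 3 min and 738 at 5 min. Its control and 3 min levels were close, and its 5 min level was 3.05-fold above control (2.61 to 3.57). Other higher miRNAs had a similar course, such as miR-6087 with 194, 197 and 334 counts.

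Features of the 22 higher entries were set beside those of the others. Among the 22 were miR-4497, miR-7704 and miR-215-5p, which the count limit admitted only through the 5 min library. miR-4497 and miR-7704 enter both the count of 4-digit names and that of entries with no second strand. The name carried a number of 4 digits, given to miRNAs registered late, in 14 of the 22 (63.6%), in 3 of the 8 lower ones and in 20 of the 201 between (9.95%). No second strand was listed for 13 of the 22. Seen from the other side, 31.7% of the 41 entries with no second strand were at least 2-fold higher, against 5.30% of the 132 major strands and 3.45% of the 58 minor strands. Median GC content hardly differed, at 46.9% in the higher, 47.7% in the lower and 47.6% in the remaining miRNAs with a sequence, yet the higher ones ran from 27.3% to 90.9%. A first base U, which Argonaute favours, was found in 33.3% of the 18 higher miRNAs with a sequence, 2 of the 8 lower ones and 49.2% of the 181 between.

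Each mature sequence was also searched, on the sense strand, for a run of at least 15 bases shared with 5722 annotated short non-coding transcripts other than miRNAs (GENCODE release 29). Such a run was found for 3 of the 18 higher miRNAs and for none of the 8 lower or 181 remaining ones. The transcripts searched held no nuclear transfer RNAs, so a run shared with one of those could not be found. Higher miRNAs without a sequence, miR-6087, miR-7641 and miR-4792 among them, were not searched. All 19 bases of miR-1246 occur in RNU2-37P, a copy of the U2 spliceosomal RNA. miR-4791 shares 16 of its 18 bases with SNORD20 and miR-5701 shares 17 of its 19 with SNORD43, both C/D box small nucleolar RNAs, which guide ribosomal RNA methylation. A shared run describes letters and does not show where the reads came from. miR-5701 (3 loci on chromosome 15) had 46 control counts, 60 at 3 min and 56 at 5 min, a ratio of 2.05 (1.36 to 3.10). A separate list holds entries taken to overlap other RNAs, and among its members the search found a run for miR-1246 only. Of the 8 measured in this list, 5 stood 2-fold or more above control (miR-1246, miR-1290, miR-6087, miR-663a and miR-7641), against 9.52% of all 231. The other 3, miR-1260a, miR-1260b and miR-4454, were at least 1.5-fold lower, so the list's median log2 ratio of 1.51 covers members on both sides.

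**Figure D2:**
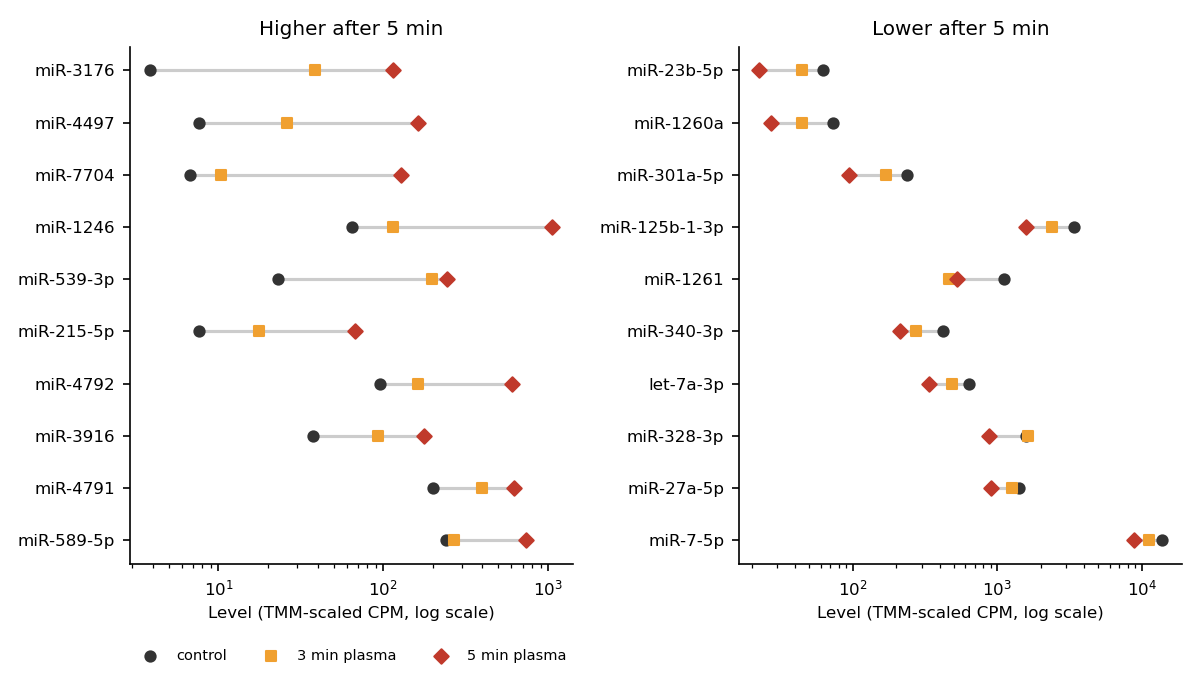
TMM-scaled levels in CPM (log x axis) in the control, 3 min and 5 min libraries for the 10 higher and 10 lower miRNAs whose counting interval lay farthest from 1. In the left panel all 10 stand highest at 5 min, and in the right panel 9 of 10 stand lowest at 5 min, miR-1261 being lower at 3 min.

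Below control, miR-1261 (chr11:90869121-90869202) had 1108 CPM in the control, 465 at 3 min and 525 at 5 min. It was the 1 miRNA of the lower 10 whose 3 min level lay under its 5 min level, and its 5 min ratio was 2.11-fold lower (1.86 to 2.39). miR-301a-5p (chr17:59151136-59151221, in an intron of SKA2) had 238, 171 and 95.04 CPM and was 2.50-fold lower (1.88 to 3.39). Its partner miR-301a-3p was too scarce for comparison with 13, 4 and 1 counts. miR-328-3p (chr16:67202321-67202395) had 1573, 1629 and 875 CPM, so the control and 3 min libraries were close and the 5 min level was 1.80-fold lower (1.63 to 1.99). miR-7-5p, which represses EGFR, had 13775, 11164 and 8842 CPM, and was 1.56-fold lower (1.51 to 1.61). miR-340-3p, a minor strand, had 443, 265 and 133 counts and was 1.98-fold lower (1.62 to 2.42), beside a log2 ratio of -0.47 for miR-340-5p.

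Shared seeds joined 74 of the 207 miRNAs with a sequence into 27 families. Summed counts of a family lay within 1.5-fold of control for 23 of them. Beyond that limit lay 2 families above control (7.41%) and 2 below it (7.41%). In 10 families every measured member was above control and in 5 every one was below, while 12 held members on both sides.

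**Figure D3:**
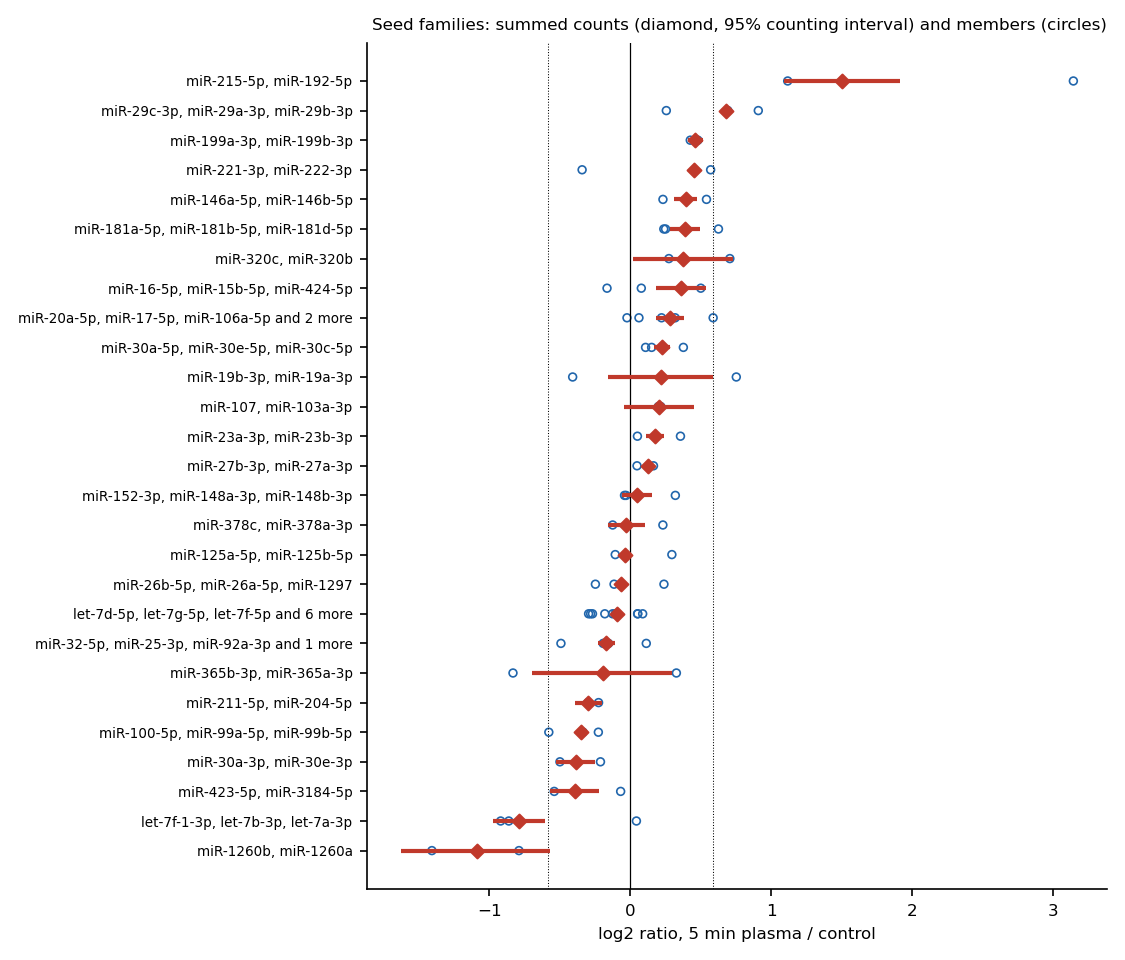
Log2 ratio of 5 min plasma over control for the 27 seed families, with diamonds and bars for the summed counts and their exact 95% counting interval, circles for the members and dotted lines at 1.5-fold. The miR-192/215 and miR-29 families lie beyond 1.5-fold on the higher side, and the let-7 passenger and miR-1260 families on the lower side.

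The miR-192/215 family, whose miRNAs restrain the cell cycle, stood highest. Its members together had 81 counts in the control, 92 at 3 min and 136 at 5 min, a ratio of 2.83 (2.13 to 3.77). miR-215-5p reached the count limit only through the 5 min library, so neither this family nor the MIR215/MIR194-1 cluster would have been formed without that library, and their place at the top is a description. miR-215-5p had 8, 17 and 42 counts and miR-192-5p had 73, 75 and 94. The scarcer strand thus made up more of the 5 min sum than of the control sum, and miR-192-5p remained the larger part. The 2 sequences are near-identical and can share reads, which makes the sum firmer than either part. Under the least favourable scaling the family stood 2.51-fold higher. Epithelial tissues also express this group. Of 7 epithelial markers none reached the count limit, the control sum was 16 counts, the sums at 3 and 5 min were 29 and 44, and miR-205-5p was at 0 throughout. The log2 ratio of these sums was 2.21 (1.36 to 3.14) at 5 min, and their part in the result was not tested.

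The miR-29 family, repressors of collagen and other matrix mRNAs, had 12028 counts in the control, 14017 at 3 min and 11460 at 5 min. That is 1.15% of control counts (exact 95% interval 1.13 to 1.17), 1.45% at 3 min (1.43 to 1.47) and 1.86% at 5 min (1.83 to 1.90). The shares stood apart in all 3 libraries. The ratio was 1.61 (1.56 to 1.65), and 1.43 under TMM over all listed miRNAs, below the 1.5-fold line. miR-29a-3p gave 11185 of the 11460 counts at 5 min, with log2 ratios of 0.69 for it, 0.91 (0.21 to 1.61) for miR-29c-3p and 0.26 (0.01 to 0.50) for miR-29b-3p.

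On the lower side were passenger strands of let-7 hairpins that share a seed. let-7a-3p had 634 CPM in the control, 488 at 3 min and 335 at 5 min. let-7b-3p had 196, 122 and 64 counts, and let-7f-1-3p had 85, 55 and 52. The first 2 were 1.89-fold (1.62 to 2.22) and 1.82-fold (1.36 to 2.45) lower, whereas let-7f-1-3p lay near control (log2 ratio 0.04, interval -0.48 to 0.56), on a side that depends on the scaling. The family sum was 1.73-fold lower (1.52 to 1.97). The guide strands of let-7, which repress RAS and HMGA2 and formed the largest family with 9 members, lay nearer to control. They took 25.9% of control counts (25.8 to 25.9), 25.1% at 3 min (24.98 to 25.2) and 24.4% at 5 min (24.3 to 24.5), a ratio of 0.935 (0.929 to 0.941).

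The miR-1260 pair is in the list of entries taken to overlap other RNAs, though the search above found no run for either. It had 143 counts in the control, 95 at 3 min and 40 at 5 min. The sum was 2.12-fold lower (1.49 to 3.09), with miR-1260a at 76, 43 and 17 counts and miR-1260b at 67, 52 and 23.

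Other abundant families lay within 1.5-fold of control. miR-221-3p and miR-222-3p have the same seed, repress the cell-cycle inhibitor CDKN1B and come from one cluster on the X chromosome. miR-221-3p had 23127 counts in the control, 29736 at 3 min and 20382 at 5 min, while miR-222-3p had 4738, 5658 and 2219. Their 5 min log2 ratios were 0.57 (0.54 to 0.60) and -0.34 (-0.42 to -0.27), and the sum of the family, mostly miR-221-3p, was 1.37-fold higher (1.34 to 1.39). The miR-99/100 family, which represses MTOR, was lower throughout: its 3 members summed to 46560, 38488 and 21681 counts, 1.27-fold lower (1.25 to 1.30) with a member range of -0.58 to -0.23 in log2 ratio. Of the miR-125 pair, miR-125a-5p stood at 0.30 (0.25 to 0.35) and miR-125b-5p at -0.11, and the sum had a ratio of 0.973 (0.960 to 0.988). The miR-27 family, with 54703, 50832 and 35444 counts, was 1.09-fold higher (1.08 to 1.11), a direction that reversed under TMM over all listed miRNAs.

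Entries with identical sequence give a measure of how reads were divided. miR-199a-3p and miR-199b-3p, which cannot be told apart by sequence, had log2 ratios of 0.48 and 0.43 on 4098 and 2073 control counts. miR-365a-3p and miR-365b-3p are also identical, yet stood at -0.83 (-1.66 to -0.06) and 0.33 (-0.35 to 0.99) on 57 and 47 control counts. Single values of such scarce twins are uncertain, and the miR-365 sum had a ratio of 0.875 (0.618 to 1.23).

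Hairpins no more than 10 kb apart on a strand, with measured miRNAs from at least 2 of them, formed 24 clusters holding 75 miRNAs. Of these clusters, 3 (12.5%) had summed counts at least 1.5-fold higher and none (0.0%) at least 1.5-fold lower. Of the 24, 16 held members on both sides of control on the main scaling, counting error aside. The summed ratio of 9 changed sign with the scaling.

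**Figure D4:**
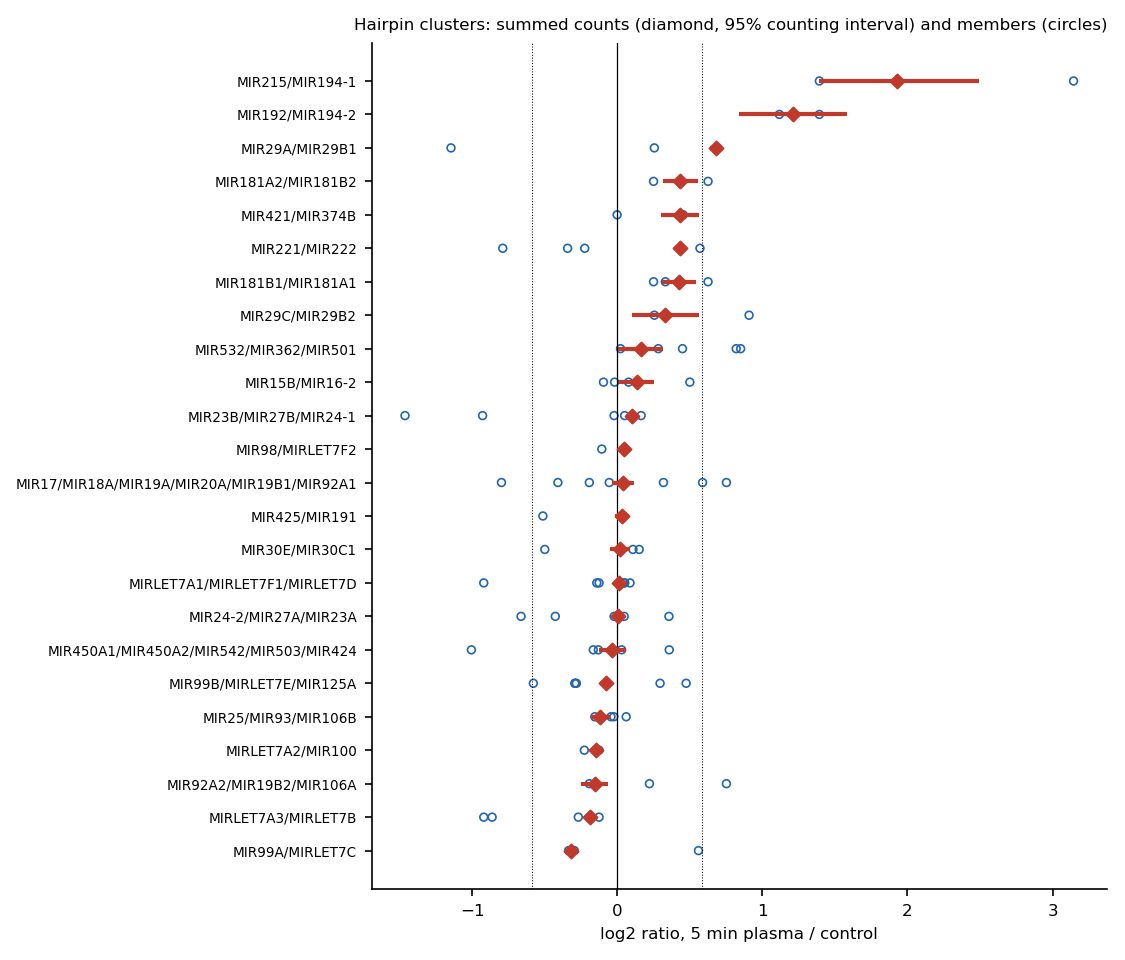
Log2 ratio of 5 min plasma over control for the 24 genomic clusters, named by their hairpins, with diamonds and bars for the summed counts and their exact 95% counting interval, circles for members and dotted lines at 1.5-fold. The MIR215/MIR194-1, MIR192/MIR194-2 and MIR29A/MIR29B1 clusters lie beyond 1.5-fold, and circles in the MIR29A/MIR29B1 and MIR17 to MIR92A1 rows fall beyond 1.5-fold on both sides.

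The MIR215/MIR194-1 cluster (chr1:220117853-220118241) had 42 control counts, 55 at 3 min and 95 at 5 min, a ratio of 3.81 (2.62 to 5.62). MIR192/MIR194-2 (chr11:64891137-64891439, in exons of MIR194-2HG) had 107, 113 and 147, a ratio of 2.31 (1.79 to 3.00). miR-194-5p, with 34, 38 and 53 counts, enters both sums because its locus cannot be read from its sequence. At MIR29A/MIR29B1 (chr7:130876747-130877539, in LINC-PINT) the sums were 12034, 14007 and 11432 counts and the ratio was 1.60 (1.56 to 1.64), or 1.42 under TMM over all listed miRNAs. This cluster held both a strand above 1.5-fold, miR-29a-3p, and one below, miR-29b-1-5p with 41, 30 and 11 counts, which was 2.21-fold lower (1.12 to 4.77).

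Split clusters included the MYC-driven MIR17 to MIR92A1 cluster on chromosome 13, whose sum was near control at a ratio of 1.03 (0.976 to 1.08). Its 7 measured strands ran from miR-18a-3p at -0.80 to miR-19b-3p at 0.75 in log2 ratio, and both ends of this range were scarce. miR-19b-3p had 66 counts in the control, 86 at 3 min and 66 at 5 min. For miR-18a-3p, the partner miR-18a-5p had 28 control counts, 40.6% of the pair. Among more abundant strands, miR-20a-5p stood at 0.59 and miR-92a-3p at -0.19. miR-19b-3p and miR-92a-3p are also cut from hairpins on the X chromosome. The 5 clusters with the most control counts had sums close to control. MIRLET7A1/MIRLET7F1/MIRLET7D on chromosome 9 had a ratio of 1.01 (0.999 to 1.02) and MIR98/MIRLET7F2 on the X chromosome one of 1.03 (1.02 to 1.05), both changing sign with the scaling. The counts of let-7f-5p enter both sums, so these are not separate measurements. MIR99A/MIRLET7C on chromosome 21 was the lowest of the 24 at 0.802 (0.791 to 0.814), on 58137, 48105 and 27672 counts. The remaining pair were the paralogous miR-23, miR-27 and miR-24 clusters, MIR23B/MIR27B/MIR24-1 (chr9:95085208-95086088, in introns and, for MIR24-1, an exon of C9orf3) at 1.07 (1.06 to 1.09) and MIR24-2/MIR27A/MIR23A (chr19:13836287-13836659) at 1.01 (0.989 to 1.02), whose signs also changed with the scaling. Here miR-24-3p enters both sums.

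Inside these sums, several minor strands lay below their guides. In MIR23B/MIR27B/MIR24-1, miR-23b-5p had 65 counts in the control, 43 at 3 min and 14 at 5 min, and miR-27b-5p had 125, 88 and 39. Their guides miR-23b-3p (3170, 2878 and 1949 counts) and miR-27b-3p (36276, 34077 and 24137) had log2 ratios of 0.05 and 0.16, both with a sign that changed with the scaling. In the paralogous cluster miR-27a-5p had 1425, 1259 and 900 CPM, 1.58-fold lower (1.44 to 1.75), beside a log2 ratio of 0.05 for its guide miR-27a-3p.

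Both strands were measured for 58 pairs of arms. The ratio of one strand over the other within a library cancels the scaling between libraries, so the arm comparison does not depend on it. In 34 pairs the interval of the arm ratio included 1. Of the other 24, the strand with fewer control counts was lower relative to its partner in 16 and higher in 8. Over all 58 pairs the median change of minor over major strand was 0.979-fold. At least a 2-fold difference between arms was seen in 7 pairs (12.1%), 4 with the minor strand lower and 3 with it higher, and in 5 of the 7 one strand had fewer than 100 control counts.

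**Figure D5:**
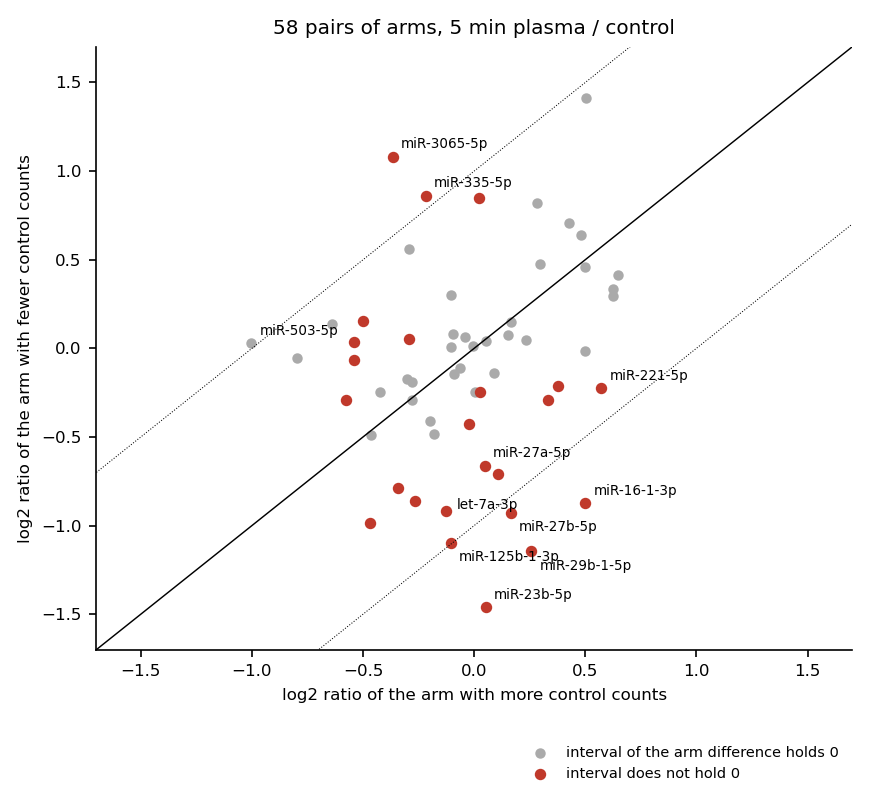
Log2 ratio of 5 min plasma over control for the strand with fewer control counts (y axis) against that of the strand with more (x axis) in the 58 pairs. The solid line marks equal ratios, dotted lines a 2-fold difference, and red points have an exact 95% interval of the arm difference that does not include 0. Of the 24 red points, 16 lie below the line and 8 above it.

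The minor strand was lowest against its partner at MIR23B. miR-23b-5p made up 2.01% of the hairpin's counts in the control (1.55 to 2.55), 1.47% at 3 min (1.07 to 1.98) and 0.713% at 5 min (0.390 to 1.19), a 2.85-fold lower arm ratio (1.58 to 5.52). For miR-29b-1-5p the share went from 10.96% (7.98 to 14.6) through 8.67% to 4.45% (2.24 to 7.83), and for miR-27b-5p from 0.343% (0.286 to 0.409) through 0.258% to 0.161% (0.115 to 0.220). miR-16-1-3p, the passenger of the BCL2 repressor miR-16-5p from an intron of DLEU2, had a share of 20.5% in the control (17.2 to 24.2), 17.7% at 3 min and 9.07% at 5 min (6.397 to 12.4). In each of these 4 pairs the 3 min share lay between those of the control and 5 min. miR-16-5p and miR-29b-3p are also cut from a second hairpin, so their shares mix loci.

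The deepest pair with a shift of this kind was miR-125b. miR-125b-1-3p (chr11:122099757-122099844, in an intron of MIR100HG) had 3530 counts in the control, 2290 at 3 min and 980 at 5 min, while miR-125b-5p, which comes from 2 hairpins, had 43083, and 23750 at 5 min. The share of the minor strand was 7.57% (7.33 to 7.82), 5.37% (5.16 to 5.59) and 3.96% (3.72 to 4.21), with no overlap between the 3 intervals, and the minor strand was 1.99-fold lower against its partner (1.85 to 2.14). The passenger of the other hairpin, miR-125b-2-3p, stood at a log2 ratio of 0.01 on 104 control counts. let-7a-3p against let-7a-5p was 1.73-fold lower (1.48 to 2.04), and miR-221-5p against miR-221-3p had an arm ratio of 0.577 (0.504 to 0.659).

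Minor strands were higher in the other 3 pairs. miR-335-5p (chr7:130496111-130496204, in an intron of the imprinted gene MEST) had a share of 12.1% in the control (9.88 to 14.7), 12.9% at 3 min and 22.6% at 5 min (18.7 to 26.9). miR-3065-5p had 47, 58 and 59 counts beside 126, 123 and 58 of miR-3065-3p, and its share went from 27.2% (20.7 to 34.4) through 32.0% to 50.4% (41.0 to 59.8). MIR3065 (chr17:81125877-81125955) lies antisense to MIR338, so reads of these hairpins cannot be told apart if strand was ignored. miR-338-3p had 52, 35 and 22 counts, only 2.32% of its pair in the control. The major strand, miR-338-5p, had a log2 ratio of -0.46, beside -0.37 for miR-3065-3p. Its part in the arm shift was not tested. For miR-503-5p the arm ratio was 2.05, with an interval of 0.91 to 4.57 that included 1.

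Counted over all 231 miRNAs, minor strands made up 25.1% and supplied 11 of the 27 that were at least 1.5-fold lower. Of the 58 minor strands, 19.0% were at least 1.5-fold lower, against 7.58% of the 132 major strands, 14.6% of the 41 with no second strand and 11.7% of all. Under TMM over all listed miRNAs the shares were 24.1%, 14.4% and 17.1% in that order. Naming the minor strand from the 3 min counts instead of the control gave 11 as well. On the main scaling, 12.1% of minor strands, 13.6% of major strands and 36.6% of those with no second strand were at least 1.5-fold higher. Minor strands are the scarcer of each pair, and large ratios were more frequent among scarce miRNAs.

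The remaining lists are read against the 17.3% of all 231 miRNAs that were at least 1.5-fold higher and the 11.7% that were at least 1.5-fold lower. Of the 9 measured miRNAs linked to oxygen and redox stress, 0 were that much higher and 1, miR-7-5p, was that much lower, near the share over all miRNAs, with a list median of -0.01 in log2 ratio. The 12 measured cell-cycle and MYC-driven miRNAs had a median of 0.02, with miR-19b-3p and miR-20a-5p at least 1.5-fold higher, also near the share over all miRNAs. Summed counts of that list, mostly those of miR-221-3p, had a log2 ratio of 0.35 (0.33 to 0.37). Of 4 measured fibroblast markers, miR-199a-5p and miR-199b-5p were at least 1.5-fold higher, with a median of 0.56, and miR-145-5p, a defining marker, had 1, 2 and 0 counts. Neural markers had 2 of 4 at least 1.5-fold lower, miR-128-3p and miR-129-5p, with a median of -0.26. The other 2 measured, miR-9-5p and miR-9-3p, lay slightly above control at log2 ratios of 0.15 and 0.07. miR-9-5p held most of the neural counts, and the list's summed counts had a log2 ratio of 0.10 (0.06 to 0.13). miR-124-3p was at 0 in each library.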

How the data were processed

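Small RNA from 3 libraries, 1 per group, was analysed, and per the labels' protocols Trizol RNA went into a NEBNext small-RNA kit. The authors deposited raw counts of reads for each mature miRNA. The submitters' processing notes name Bowtie2, bedtools and edgeR. Not given in the sources used here were strand use, the build, the annotation and the tools' versions and roles, so near-identical and antisense miRNAs can share reads. Positions are from RefSeq on GRCh38.p14 and host genes from GENCODE release 29.

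Counts were scaled by TMM (edgeR 4.0.16, R 4.3.3) over the miRNAs averaging 20 or more counts in the 3 libraries. The main test for counts needs replicates, so ratios carry exact Clopper-Pearson 95% intervals, and arm differences an exact conditional interval of the odds ratio (scipy 1.17.1, Python 3.11.15). Ratio and arm steps were tested on simulated data. A strand absent from the sequence table was placed by its other arm, which put 217 miRNAs on a hairpin. Named were the 10 higher and 10 lower miRNAs of at least 1.5-fold with intervals farthest from 1, families and clusters at least 1.5-fold away or among the 5 largest, up to 8 arm pairs at least 2-fold apart and up to 3 members per list. Other miRNAs were chosen after their values were seen, as were the search for runs shared with short RNAs and the count of minor strands. The members and lists were chosen with earlier results of these data known. Alternatives covered scaling (DESeq2 1.42.0 among them), count filter, seed length, cluster gap and summary by median. The result of 1 list is not reported here.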

Additional observations from a re-analysis of the deposited data

How the results depend on the processing

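Of the 22 miRNAs at least 2-fold higher, 18 stayed so under all 5 scalings, as did 7 of the 8 lower ones. The sign of the log2 ratio changed with the scaling for 42 miRNAs, 2 seed families and 9 clusters. TMM over all listed miRNAs raised the count at least 2-fold lower to 16, since it moves every ratio down. A mean of at least 100 counts, which tests fewer miRNAs, left 7 higher and 3 lower, 2 seed families beyond 1.5-fold, and 0 arm pairs at least 2-fold apart. With no filter, 513 miRNAs were compared instead of 231, and 131 of the 513 were higher and 29 lower. The miRNAs added in this way lie below the main count limit, so their ratios rest on few counts. Leaving out miRNAs of several loci left 1 cluster beyond 1.5-fold, because miR-194-5p drops out of the other 2. Counts under the other scalings, a seed of bases 2 to 7, a gap of 50 kb, a summary by median and a filter on the 2 libraries compared stayed within 1.5 times of those reported. No paired analysis was possible because each group has 1 library. Depth limits the scarce miRNAs most, as 1 count at 5 min is worth 1.62 CPM.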

Other observations

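The 2357 miRNAs below the count limit also differed as a whole. They summed to 1762 counts in the control, 1742 at 3 min and 1819 at 5 min, although the 5 min library was the shallowest, a ratio of 1.74 (exact 95% counting interval 1.63 to 1.86). At least 1 count was listed for 639 miRNAs in the control, 663 at 3 min and 708 at 5 min. Thinned to the 615645 counts of the 5 min library, the control would be expected to list 551 and the 3 min library 582.

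Among these scarce miRNAs, 6 muscle markers summed to 15 counts in the control, 20 at 3 min and 30 at 5 min. miR-1-3p had 0, 3 and 15 counts and miR-499a-5p had 14, 14 and 13. miR-133a-3p had 1, 0 and 0 and miR-208a-3p had 0, 3 and 2, while miR-133b and miR-206 were at 0 in each. Blood markers summed to 17, 21 and 14 counts, with miR-223-3p at 0. These miRNAs were chosen after their values were seen.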
